A study of Mus musculus with 12 samples.

Results

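The response of wild-type follicular B cells of the mouse spleen to anti-IgM was described by comparing the 3 Jmjd1c WT libraries at 2 h of anti-IgM with the 3 Jmjd1c WT libraries at 0 h. These are 6 of the 12 libraries of the series, and the column names give each of 3 numbered WT animals a 2 h and a 0 h library, so the comparison was paired by that number. The cells were primary splenic follicular (FO) B cells, sorted before treatment and lysed for poly(A) RNA sequencing. The other 6 libraries were Jmjd1c KO at 2 h and at 0 h from 3 further animals. They entered the gene filter, the scaling, the estimate of spread and a test of whether the responses differ. The labels give no strain, sex, age, dose of anti-IgM or allele of the KO animals. The series holds no library of cells kept for 2 h without anti-IgM, so receptor cross-linking and time in culture cannot be told apart.

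Anti-IgM cross-links the B cell receptor, a surface immunoglobulin that signals through CD79A and CD79B to the kinases LYN, SYK and BTK. From there calcium and NFAT, RAS and ERK, PI3K and AKT, and NF-kB carry the signal to the nucleus, where immediate early transcription factors are made first and genes of growth, adhesion and survival follow. A resting follicular B cell is small and quiescent, held there by factors of the FOXO and KLF families. Entry into growth needs more ribosomes, nucleotides, amino acids and lipids before DNA is copied.

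The libraries held 8546014, 6501091 and 11274984 counts in WT animals 1, 2 and 3 at 2 h, and 10991386, 8121347 and 13796131 counts at 0 h. Follicular B cell markers were abundant in all 6 libraries. The 14 markers tested summed to between 5691 and 7117 CPM at 2 h and between 7406 and 8730 CPM at 0 h, where CPM is the count scaled to library size, and 5 of them were called lower at an adjusted p under 0.05 in edgeR, the rule behind each call below unless another tool is named. T cell markers summed to between 157 and 236 CPM at 2 h and between 111 and 189 CPM at 0 h, and of 12 tested 1 was called higher. None of the 8 NK cell markers, the 9 neutrophil markers or the 6 erythroid and platelet markers tested was called by edgeR. None of these reached an unadjusted p under 0.05, and DESeq2 called 0 of them. Of 8 myeloid and dendritic markers 1 was called higher. Of 14 marginal zone and B-1 markers 2 (14.3%) were called higher, S1pr3 and Cd5, both described again below. Another 2 (14.3%) were called lower, against 10.2% higher and 9.41% lower among all genes tested. These 14 markers summed to between 1054 and 1313 CPM at 2 h and between 970 and 1055 CPM at 0 h. No listed marker of these cell types was at 0 in all 6 libraries.

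The 2 h library of animal 1 stood apart from the 0 h library of the same animal. Rn45s, the precursor of ribosomal RNA, made up 24.8% of its counts, against 1.09% at 0 h, while the shares were 15.0% at 2 h and 12.9% at 0 h in animal 2, and 0.418% and 0.560% in animal 3. Mki67, made in dividing cells, had 138, 87.7 and 12.4 CPM at 2 h, against 8.81, 88.7 and 12.4 CPM at 0 h. Mpo, the peroxidase of granulocyte precursors, had 115, 60.9 and 0.942 CPM at 2 h, against 3.18, 53.3 and 1.1 CPM at 0 h, and neutrophil markers together summed to 142 CPM in the 2 h library of animal 1 and to 18.6 CPM in its 0 h library. Animal 1 had Xist, the RNA of the inactive X chromosome, at 1304 CPM at 2 h and 1154 CPM at 0 h. The Y-linked Ddx3y had 5.73, 222 and 201 CPM at 2 h, against 0.159, 242 and 210.4 CPM at 0 h, so in animal 1 the 2 h library held Y-linked reads that the 0 h library nearly lacked. Over all genes the deviations of its 2 libraries from their group means correlated with r = -0.16, against 0.52 and 0.57 in animals 2 and 3. Libraries of different animals had r from -0.72 to 0.46, with r = 0.46 for the 2 h library of animal 1 and the 0 h library of animal 2. For the 2 h library of animal 3 and the 0 h library of animal 1 it was r = 0.32. The deviations within a group are tied by their shared mean, so these r values are not independent. Whether both libraries of animal 1 come from 1 animal was not tested. Results are given below with and without that animal and, where the call changes, without the pairing.

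Of 12242 genes tested, 2406 were called at an adjusted p under 0.05 in edgeR, which is 19.7% of those tested. Of the called genes 1254 were higher and 1152 lower at 2 h, or 10.2% and 9.41% of the genes tested. Changes beyond 2-fold were found for 542 of the higher and 325 of the lower genes, beyond 4-fold for 90 and 14, and beyond 8-fold for 12 and 1. The large changes were therefore mostly increases, while the counts of calls were nearly balanced. All 2406 moved the same way in 3 of 3 animals, against 60.7% of all genes tested, and 2346 had no overlap between the 2 h and the 0 h libraries (43.9% of genes tested had none). Among the called genes whose library values are given below, Tlr7 is the one whose groups overlap. Genes called higher summed to 158285 CPM at 2 h, against 76215 CPM at 0 h, and genes called lower summed to 86262 CPM at 2 h, against 155921 CPM at 0 h. Few genes came from near silence: 25 of the called higher genes had a mean under 1 CPM at 0 h, and 10 of the called lower genes a mean under 1 CPM at 2 h. In bulk RNA of this kind, fewer cells that express a gene and less of its RNA per cell cannot be told apart.

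**Figure D1:**
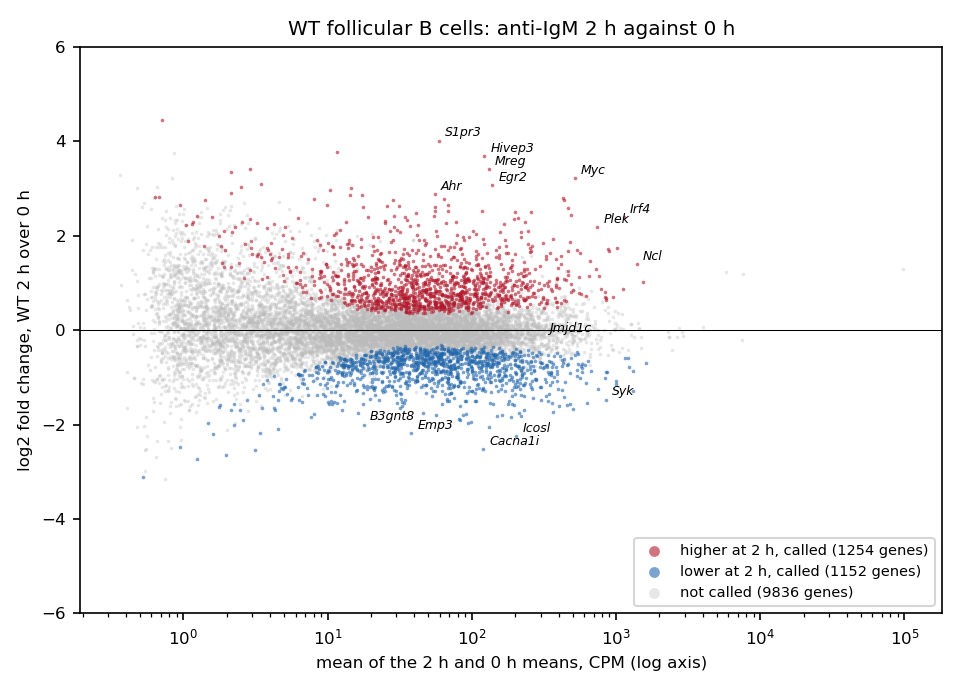
Log2 fold change of WT 2 h over 0 h (vertical axis) against the mean of both group means in CPM (log axis), 1 point for each of the 12242 genes tested, with called genes in red (1254 higher) and blue (1152 lower). Myc, Egr2, Mreg, Hivep3 and S1pr3 lie above 3 on the log2 scale, and the largest fall among genes with a mean of at least 10 CPM is Cacna1i at -2.53.

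The calls depended on which animals were in the fit. Without animal 1, animal 2 or animal 3 of WT, 1408, 506 and 490 genes were called, of which 1365, 503 and 490 were among the 2406, all in the same direction. In each of these 3 fits, which rest on 2 WT animals, 425 genes were called, 232 higher and 193 lower. Without KO animal 1, whose 2 h library held 52.3% Rn45s, 4215 genes were called, among them all 2406. Jmjd1c, the gene that the KO label names, had 322, 295 and 269.7 CPM at 2 h, against 360.0, 326 and 289 CPM at 0 h. Its libraries at 2 h and 0 h overlapped, and it was not called (-0.14 ± 0.11 on the log2 scale, SE, adjusted p = 0.48).

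S1pr3, a receptor for sphingosine 1-phosphate on chromosome 13 from 51408618 to 51422797 (GRCm38), had 87.1, 145 and 101 CPM at 2 h, against 6.27, 8.69 and 5.49 CPM at 0 h. It rose by 4.02 ± 0.20 on the log2 scale (SE, adjusted p = 0.000416) and was the highest riser among genes with a mean of at least 10 CPM. Hivep3, a large zinc finger protein that binds kB-like sites, had 117, 274 and 291 CPM at 2 h, against 14.2, 19.1 and 16.2 CPM at 0 h, a rise of 3.69 ± 0.57. In both genes all 3 libraries at 2 h lay above all 3 at 0 h, which was a condition for choosing these leading genes. Mreg, melanoregulin, had 169, 303 and 247 CPM at 2 h, against 20.6, 25.6 and 20 CPM at 0 h, and Gng4, a G protein gamma subunit, had 19.8, 33.2 and 24.1 CPM at 2 h, against 2.06, 3.02 and 4.46 CPM at 0 h. Il1r1, the signalling receptor of interleukin 1, had 18, 24.3 and 13.1 CPM at 2 h, against 2.06, 3.74 and 1.53 CPM at 0 h, and Lrrc32, which presents latent TGF-beta, had 15, 38.7 and 22.1 CPM at 2 h, against 2.54, 3.86 and 3.3 CPM at 0 h. Ahr, the aryl hydrocarbon receptor, had 40.5, 124 and 131 CPM at 2 h, against 9.05, 15.8 and 12.1 CPM at 0 h. The rises of these 5 were 3.41, 3.02, 2.97, 2.87 and 2.88 on the log2 scale. S1pr3, Mreg, Gng4, Il1r1, Lrrc32 and Ahr were called in all 3 fits without a WT animal. Hivep3 was not called without animal 2 (adjusted p = 0.054) and without animal 3 (adjusted p = 0.0622).

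The largest decreases were smaller in fold than the largest increases. Cacna1i, the pore of a T-type calcium channel on chromosome 15 from 80287238 to 80398292, had 41.3, 23.6 and 42.9 CPM at 2 h, against 188, 169.6 and 254 CPM at 0 h, a fall of 2.53 ± 0.20 (adjusted p = 0.001). Icosl, which encodes the B cell partner of the T cell receptor ICOS, had 82.6, 57.1 and 75.9 CPM at 2 h, against 348, 336 and 325 CPM at 0 h. The 2 h and 0 h libraries did not overlap in either gene, which was again a condition for choosing the leading genes. Emp3, a tetraspan membrane protein, had 18.1, 12.1 and 11.2 CPM at 2 h, against 58.9, 74.6 and 53 CPM at 0 h, and Pik3c2b, a class II phosphoinositide 3-kinase, had 62.1, 46.3 and 46.1 CPM at 2 h, against 235, 218 and 186 CPM at 0 h. Cpm, a membrane carboxypeptidase, had 49.4, 23.5 and 44.7 CPM at 2 h, against 157, 136 and 150.3 CPM at 0 h, and Traf5, an adaptor of TNF receptors, had 43.1, 27.4 and 34.5 CPM at 2 h, against 142, 133 and 113 CPM at 0 h. These fell by 2.24, 2.17, 2.05, 1.97 and 1.90. Slc43a2, an amino acid transporter, fell by 1.93. B3gnt8, Map3k9 and Arrdc3 fell by 2.00, 1.88 and 1.84. Cacna1i, Icosl, Emp3, Pik3c2b, Cpm, Traf5 and Slc43a2 were called in all 3 fits without a WT animal. Arrdc3 was not called without animal 1 (adjusted p = 0.0761). Map3k9 and Arrdc3 were not called without animal 2 (adjusted p = 0.0705 to 0.0926). B3gnt8 and Arrdc3 were not called without animal 3 (adjusted p = 0.0518 to 0.0659).

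**Figure D2:**
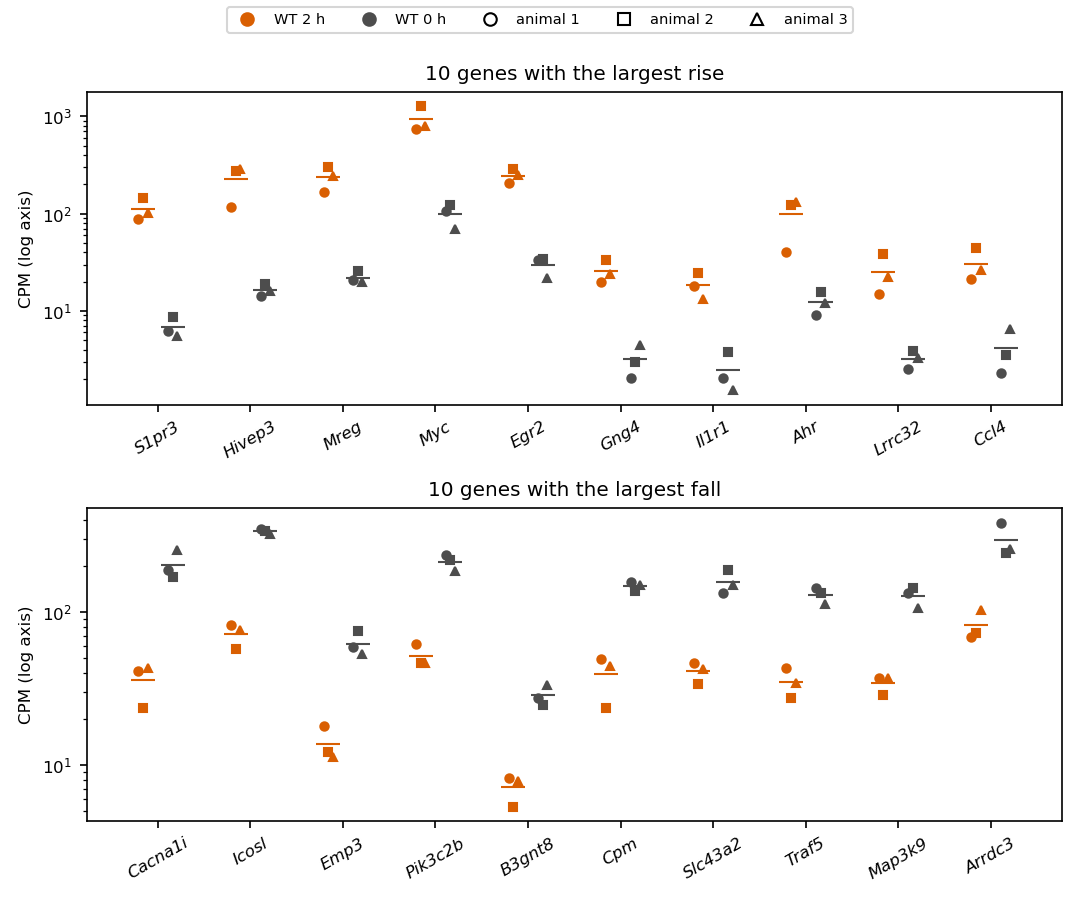
CPM (log axis) of the 10 genes with the largest rise and the 10 with the largest fall among called genes with a mean of at least 10 CPM, groups that do not overlap and 1 direction in 3 animals. Orange symbols are WT 2 h and grey symbols WT 0 h libraries, the shape gives the animal and the line the mean of 3, and the genes were chosen for this separation.

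By the amount of RNA gained rather than by fold, other genes led. Irf4, a dose-dependent factor of activated B cells and plasma cells, had 1686, 2090.2 and 1938 CPM at 2 h, against 415, 336 and 329.7 CPM at 0 h, and Plek, pleckstrin, had 1066, 1289 and 1288 CPM at 2 h, against 275, 272 and 257 CPM at 0 h. Swap70, a signalling protein of activated B cells, had 1152, 1488 and 1388 CPM at 2 h, against 414, 405 and 404 CPM at 0 h, and Cd83, an activation antigen, had 1438, 1655 and 1587 CPM at 2 h, against 564, 499.7 and 361 CPM at 0 h. Irf4, Plek, Swap70 and Cd83 rose by 2.41, 2.18, 1.71 and 1.74. Among the genes that lost the most RNA, Syk, the kinase that binds phosphorylated CD79 chains, had 495, 349 and 514 CPM at 2 h, against 1227, 1121 and 1372 CPM at 0 h, and Gdi2, which extracts RAB proteins from membranes, had 503, 401 and 429.9 CPM at 2 h, against 1073, 1021 and 1079 CPM at 0 h. Hmha1, a GTPase-activating protein, had 869, 632 and 805 CPM at 2 h, against 1929, 1827 and 1793 CPM at 0 h, and Myh9, nonmuscle myosin IIA, had 962, 971 and 853 CPM at 2 h, against 1752, 1760.1 and 1529 CPM at 0 h. Syk, Gdi2, Hmha1 and Myh9 fell by 1.47, 1.26, 1.28 and 0.85. Irf4, Plek, Swap70, Syk, Gdi2 and Hmha1 were called in all 3 fits without a WT animal. Cd83 and Myh9 were not called without animal 2 (adjusted p = 0.0621 to 0.0804) and without animal 3 (adjusted p = 0.0566 to 0.0964).

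Immediate early transcription factors were unevenly represented at 2 h. Of 24 EGR, NR4A, AP-1 and related genes tested, 11 were called higher and 1 lower, with a median log2 change of 1.07 against 0.01 over all genes. The medians in animals 1, 2 and 3 were 1.28, 0.63 and 0.54, largest in animal 1 and over 1.5 times those of the other animals. Egr2, a zinc finger factor that restrains lymphocyte activation, had 205, 285 and 250.5 CPM at 2 h, against 33.7, 34 and 21.7 CPM at 0 h, and its relative Egr3 had 793, 759 and 831 CPM at 2 h, against 138, 149.6 and 112 CPM at 0 h. They rose by 3.07 ± 0.24 and 2.59 ± 0.26. Nr4a1, an orphan nuclear receptor used as a readout of receptor signalling, had 1377, 1667 and 1019 CPM at 2 h, against 523, 573 and 235 CPM at 0 h, a rise of 1.68 from a high resting level. Maff, Batf and Nab2, a small MAF protein, an AP-1 partner of IRF4 and a corepressor of EGR factors, rose by 2.43, 1.40 and 1.05. Of the 11 higher calls of the list, 8, 7 and 6 were also made without animal 1, 2 and 3. Egr2, Egr3, Nr4a1, Maff and Batf were called in all 3 fits without a WT animal. Nab2 was not called without animal 3 (adjusted p = 0.0638).

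The FOS and JUN genes themselves did not show a shared change. Fos, the canonical partner of JUN, had 64.5, 43.1 and 9.58 CPM at 2 h, against 17.7, 46.8 and 9.76 CPM at 0 h, and Fosb had 61.8, 44.5 and 5.5 CPM at 2 h, against 14.2, 44.2 and 5.86 CPM at 0 h. Both were higher at 2 h in animal 1 and at about the same level at both times in animals 2 and 3, with log2 ratios in animals 1, 2 and 3 of 1.83, -0.12 and -0.03 for Fos and 2.08, 0.01 and -0.08 for Fosb. Ier3, a stress-induced survival gene, showed the same split, with log2 ratios of 3.07, 0.39 and 0.02. None of these was called (Fos adjusted p = 0.601, Fosb adjusted p = 0.593, Ier3 adjusted p = 0.499), and the part in this of the reads that set the 2 h library of animal 1 apart was not tested. Junb had 359.7, 381 and 267 CPM at 2 h, against 340.4, 437 and 187 CPM at 0 h, and overlapped between times. Jund, a JUN family member associated with resting cells, had 192, 200.05 and 231 CPM at 2 h, against 504, 491 and 354 CPM at 0 h, and fell by 1.101 ± 0.19 (adjusted p = 0.00731). Fosl2 and Nr4a2 rose by 1.37 and 1.30. Fosl2 and Nr4a2 were not called without animal 1 (adjusted p = 0.128 to 0.136), without animal 3 (adjusted p = 0.0655 to 0.0873) and without the animal block (adjusted p = 0.106 to 0.179). Jund, Fosl2 and Nr4a2 were not called without animal 2 (adjusted p = 0.0814 to 0.157).

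Myc, the transcription factor that drives cell growth on chromosome 15 from 61985341 to 61990361, was one of the genes with both a high level and a high fold. It had 738, 1273 and 799 CPM at 2 h, against 105, 123 and 70.1 CPM at 0 h, a rise of 3.23 ± 0.20 (adjusted p = 0.000892). Pvt1, the noncoding neighbour of Myc, had 12.1, 27.5 and 24.3 CPM at 2 h, against 6.11, 8.45 and 4.21 CPM at 0 h, and rose by 1.75. Among 13 genes of the MYC network tested, 2 (15.4%) were called higher and 2 (15.4%) lower, against 10.2% and 9.41% of all genes tested. MAX, the obligate partner, differed by -0.02 ± 0.11 (Max, adjusted p = 0.938). Mxd4, whose protein competes with MYC for MAX, had 16.6, 12.8 and 12.2 CPM at 2 h, against 34, 37.8 and 31.4 CPM at 0 h. Mxi1, of the same family, had 27.8, 26.7 and 18.9 CPM at 2 h, against 52.6, 45.4 and 47.5 CPM at 0 h. They fell by 1.31 and 1.01. Mnt, another antagonist, went the other way and rose by 0.76. Mycn was at 7.19, 3.24 and 0.157 CPM at 2 h, against 0.238, 3.38 and 0.183 CPM at 0 h, high at 2 h only in animal 1, and was not called. Myc, Mxd4 and Mxi1 were called in all 3 fits without a WT animal. Mnt was not called without animal 1 (adjusted p = 0.0786) and without the animal block (adjusted p = 0.0733). Pvt1 and Mnt were not called without animal 2 (adjusted p = 0.0832 to 0.153) and without animal 3 (adjusted p = 0.0903 to 0.233).

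The sequence CACGTG, the E-box read by MYC with MAX and by other basic helix-loop-helix factors, was searched in RefSeq promoter windows of 300 bases (GRCm38.p6, 250 before to 50 after the start) of genes with 1 window. It is its own reverse complement, so both strands were covered. It was present in 22.4% of 835 windows of genes called higher, 6.69% of 673 windows of genes called lower and 10.4% of 7717 windows of all genes tested. Windows of higher genes had a median GC content of 61.3%, against 62.0% for lower genes and 61.0% for all. An E-box was in 22.5% of 40 ribosome biogenesis, 21.7% of 23 mitochondrial import and 30.8% of 13 tRNA synthetase windows. It was in 34.4% of 32 lysosome and autophagy windows, and in 15.6% of 45 windows of genes higher over 4-fold. The upstream 250 bases of 5 genes are shown, with each E-box in capitals. The 5 were chosen for holding an E-box and do not stand for their groups.

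Cdk4, higher, chr10:127063285-127063534, plus strand: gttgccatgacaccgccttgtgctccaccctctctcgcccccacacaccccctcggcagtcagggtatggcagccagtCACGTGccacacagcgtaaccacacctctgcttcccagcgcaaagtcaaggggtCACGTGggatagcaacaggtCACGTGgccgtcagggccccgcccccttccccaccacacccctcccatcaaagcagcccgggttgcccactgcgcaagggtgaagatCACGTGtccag
Nop2, higher, chr6:125131633-125131882, plus strand: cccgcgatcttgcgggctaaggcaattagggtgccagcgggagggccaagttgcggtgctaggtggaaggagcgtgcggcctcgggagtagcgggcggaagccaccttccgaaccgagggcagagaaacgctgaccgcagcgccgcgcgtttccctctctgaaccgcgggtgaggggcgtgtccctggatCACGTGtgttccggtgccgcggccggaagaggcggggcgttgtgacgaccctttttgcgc
Timm9, higher, chr12:71136676-71136925, minus strand: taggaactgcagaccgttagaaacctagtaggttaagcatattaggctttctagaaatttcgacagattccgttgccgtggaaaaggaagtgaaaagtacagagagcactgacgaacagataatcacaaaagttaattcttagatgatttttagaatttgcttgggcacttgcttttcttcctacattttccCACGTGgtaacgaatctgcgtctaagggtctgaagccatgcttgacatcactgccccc
Iars, higher, chr13:49681880-49682129, plus strand: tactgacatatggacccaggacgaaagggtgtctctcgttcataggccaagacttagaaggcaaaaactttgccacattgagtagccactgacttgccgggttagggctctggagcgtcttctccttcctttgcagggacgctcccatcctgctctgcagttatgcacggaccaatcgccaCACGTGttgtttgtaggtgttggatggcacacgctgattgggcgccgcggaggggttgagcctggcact
Mxd4, lower, chr5:34187711-34187960, minus strand: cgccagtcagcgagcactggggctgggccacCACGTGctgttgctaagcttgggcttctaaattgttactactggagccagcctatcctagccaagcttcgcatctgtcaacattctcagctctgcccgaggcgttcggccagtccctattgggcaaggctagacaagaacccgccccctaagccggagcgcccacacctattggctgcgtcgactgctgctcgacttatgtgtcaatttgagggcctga

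Cdk4, the G1 kinase, has 4 E-boxes before its start, at 172, 118, 98 and 11 bases, while the other 4 printed stretches have 1 each. The E-box of Mxd4 lies 219 bases before the start of a gene that fell, so a match does not go with 1 direction. The other motifs differed less between the sets. A cyclic AMP response element, TGACGTCA, was in 4.31% of higher, 2.38% of lower and 3.45% of all windows, an AP-1 site, TGANTCA, in 4.31%, 5.05% and 4.61%, and an EGR site, GCGTGGGCG, in 2.28%, 1.04% and 1.24%. An ETS site, CCGGAAGT, was in 9.94%, 5.50% and 9.15%, and part of a Rel site, GGAATTTCC, in 0.479%, 0.594% and 0.337%. All were searched on both strands. The cyclic AMP response element and the E-box share the letters ACGT, and a match is a string of letters rather than a bound site.

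**Figure D3:**
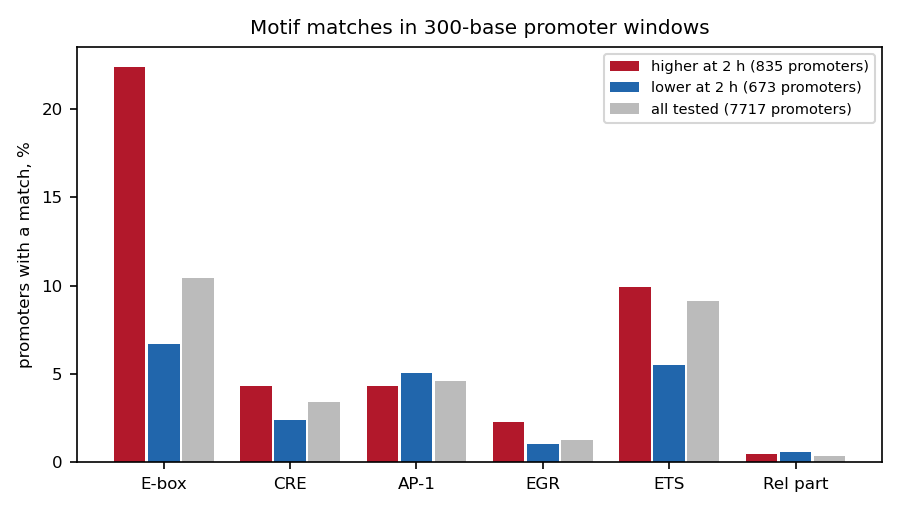
Share of promoters (%) with at least 1 match of each motif, for genes called higher at 2 h (835 promoters), called lower (673) and all tested (7717). The E-box share is 22.4% among higher genes and 6.69% among lower genes, while the other motifs stay at or under 9.94% in each set.

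NF-kB subunits and their feedback regulators were more often called higher than lower. Of 24 tested, 7 were called higher and 2 lower. Nfkbid, an atypical IkB protein that is needed for B cell responses, had 606, 611 and 519 CPM at 2 h, against 172, 162 and 125 CPM at 0 h, a rise of 1.93 ± 0.16, and Traf1, an adaptor, had 96.8, 170.1 and 104 CPM at 2 h, against 37.6, 64.9 and 44.9 CPM at 0 h, a rise of 1.32 ± 0.17. Nfkbie, Nfkbiz and Tnfaip3, which encode IkB-epsilon, IkB-zeta and the deubiquitinase A20, rose by 1.68, 1.33 and 1.21. Bcl3, an IkB protein of the nucleus, had 49.7, 45 and 44.9 CPM at 2 h, against 138, 144 and 114 CPM at 0 h, and fell by 1.497 ± 0.11. Rel, the subunit c-Rel, had 595, 706 and 607 CPM at 2 h, against 286, 296 and 219.9 CPM at 0 h, and no 2 h library overlapped a 0 h library. It was not called (1.26 ± 0.41, adjusted p = 0.0715), and it was called without KO animal 1 (adjusted p = 0.000116). The libraries of that KO animal enter through the gene filter, the scaling and the estimate of spread. Nfkbid, Traf1 and Bcl3 were called in all 3 fits without a WT animal. Nfkbie, Nfkbiz and Tnfaip3 were not called without animal 2 (adjusted p = 0.0538 to 0.0864) and without animal 3 (adjusted p = 0.0531 to 0.0949).

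The primary transcripts of well-known lymphocyte miRNAs were counted through rows that span their hairpins, which report poly(A) RNA of the host transcript and not the mature miRNA. Of 129 miRNA rows tested 5 (3.88%) were called higher and 4 (3.10%) lower, under the 10.2% and 9.41% of all genes tested. The mature sequences of 3 are shown with the seed, bases 2 to 8, in capitals (RefSeq, GRCm38.p6), since their rows are described next.

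mmu-miR-155-5p, chr16:84714143-84714165, plus strand: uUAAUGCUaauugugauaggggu
mmu-miR-146a-5p, chr11:43374435-43374456, minus strand: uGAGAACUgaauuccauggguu
mmu-miR-142a-3p, chr11:87756903-87756925, plus strand: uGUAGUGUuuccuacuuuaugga

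The 3 seeds are different. The Mir155 row, whose miRNA tunes activated B cells, had 19, 35 and 41 counts at 2 h, against 10, 3 and 5 counts at 0 h, and 2.53, 5.66 and 3.22 CPM at 2 h, against 0.794, 0.362 and 0.305 CPM at 0 h. It rose by 2.91 ± 0.61 (adjusted p = 0.0159). The Mir146 row, whose miRNA limits NF-kB signalling, had 7, 9 and 22 counts at 2 h, against 2, 0 and 0 counts at 0 h, too few for a fold to be given (adjusted p = 0.0191). Mir142, expressed across blood cells, had 12.7, 10.2 and 13.7 CPM at 2 h, against 24.1, 20.8 and 20.7 CPM at 0 h, and fell by 0.84 ± 0.14. Its row overlaps that of Mir142b on the other strand, and reads of the pair cannot be told apart. Mir17hg, the host of the miR-17 to miR-92 cluster, had 120.4, 181 and 176 CPM at 2 h, against 60.4, 60 and 59.4 CPM at 0 h, and rose by 1.39 ± 0.19. Mir17hg was called in all 3 fits without a WT animal. Mir155 and Mir142 were not called without animal 2 (adjusted p = 0.0697 to 0.131). Mir155 was not called without animal 3 (adjusted p = 0.13).

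Components of the B cell receptor and of the pathways beneath it were more often called lower than higher. Among 23 receptor chains and proximal signalling genes, 1 was called higher and 7 lower, with a median log2 change of -0.47. Cd79b, a signalling chain, had 708, 458 and 778 CPM at 2 h, against 1469.7, 1129.9 and 1456 CPM at 0 h, and fell by 1.09, and Cd79a fell by 0.69. Lyn, a kinase that acts at the receptor, fell by 0.78. The gene called higher was Pik3ap1, an adaptor that recruits PI3K, with 369, 572 and 518 CPM at 2 h, against 149.7, 186 and 152 CPM at 0 h, and a rise of 1.57. Cr2, Fyn and Blk differed by 0.98 ± 0.33, 0.97 ± 0.39 and 0.89 ± 0.32 and were not called, and DESeq2 called 13 of the 23 genes. Of the 7 lower calls 3, 1 and 2 were also made without animal 1, 2 and 3. Lyn and Pik3ap1 were not called without animal 1 (adjusted p = 0.0559 to 0.0584). Cd79b, Cd79a, Lyn and Pik3ap1 were not called without animal 2 (adjusted p = 0.0708 to 0.132). Cd79a, Lyn and Pik3ap1 were not called without animal 3 (adjusted p = 0.0973 to 0.134). Cd79a was not called without the animal block (adjusted p = 0.0503).

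Inhibitory receptors and phosphatases were called in both directions. Of 24 tested, 5 (20.8%) were called higher and 7 (29.2%) lower, against 10.2% and 9.41% of all genes tested. Lilrb4, an inhibitory immunoglobulin-like receptor, had 25.4, 46.9 and 52.3 CPM at 2 h, against 5.64, 8.57 and 10.4 CPM at 0 h, and Cd72, a receptor that recruits the phosphatase SHP-1, had 853, 964 and 1109 CPM at 2 h, against 392, 330.0 and 336 CPM at 0 h. They rose by 2.32 ± 0.25 and 1.47 ± 0.20. Cblb, a ubiquitin ligase that restrains receptor signalling, had 93.5, 102 and 76.1 CPM at 2 h, against 244, 299 and 253 CPM at 0 h, and Siglecg, a sialic acid receptor, had 119.6, 71.4 and 123 CPM at 2 h, against 271, 199 and 362 CPM at 0 h. They fell by 1.56 ± 0.15 and 1.40 ± 0.13. Fcgr2b, the inhibitory Fc receptor, had 71.8, 45.2 and 64.2 CPM at 2 h, against 163, 148 and 139 CPM at 0 h, and fell by 1.33. Cd5 rose by 1.36 and Ptpn22, a tyrosine phosphatase, by 0.999. Cd22, the best known inhibitory lectin of B cells, differed by -0.48 ± 0.21 and was not called (adjusted p = 0.155). Lilrb4, Cd72, Cblb and Siglecg were called in all 3 fits without a WT animal. Fcgr2b and Ptpn22 were not called without animal 2 (adjusted p = 0.0529 to 0.0641). Cd5 was not called without animal 3 (adjusted p = 0.0719).

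Regulators of the RAS and calcium branches were more often called lower than higher. Of 25 MAPK phosphatases and RAS and RAP regulators, 2 were called higher and 9 lower. Rasgrp2, a calcium-regulated activator of RAP1, had 113, 81.1 and 97.3 CPM at 2 h, against 361, 313 and 344 CPM at 0 h, and Rasa3, an inhibitor of RAS and RAP, had 277, 231 and 218 CPM at 2 h, against 697, 804 and 797 CPM at 0 h. An activator and an inhibitor of RAP thus fell together, by 1.82 ± 0.13 and 1.67 ± 0.15. Sipa1, another RAP inhibitor, fell by 0.93. Among 26 calcium and NFAT genes, 2 were called higher and 6 lower. Orai1, the pore of the store-operated calcium channel, had 70.2, 93.2 and 68.1 CPM at 2 h, against 26.9, 30.3 and 20.6 CPM at 0 h, and rose by 1.58 ± 0.15, while Itpr3, an IP3 receptor of the stores, fell by 1.04. Stim1, the sensor of the stores, fell by 0.73 and Nfatc2 by 0.98. Of 26 PI3K and AKT genes 0 were called higher and 3 lower, and these 11.5% lie close to the 9.41% of all genes tested. Rasgrp2, Rasa3, Orai1 and Itpr3 were called in all 3 fits without a WT animal. Sipa1 and Nfatc2 were not called without animal 2 (adjusted p = 0.0514 to 0.053). Stim1 was not called without animal 3 (adjusted p = 0.0626).

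**Figure D4:**
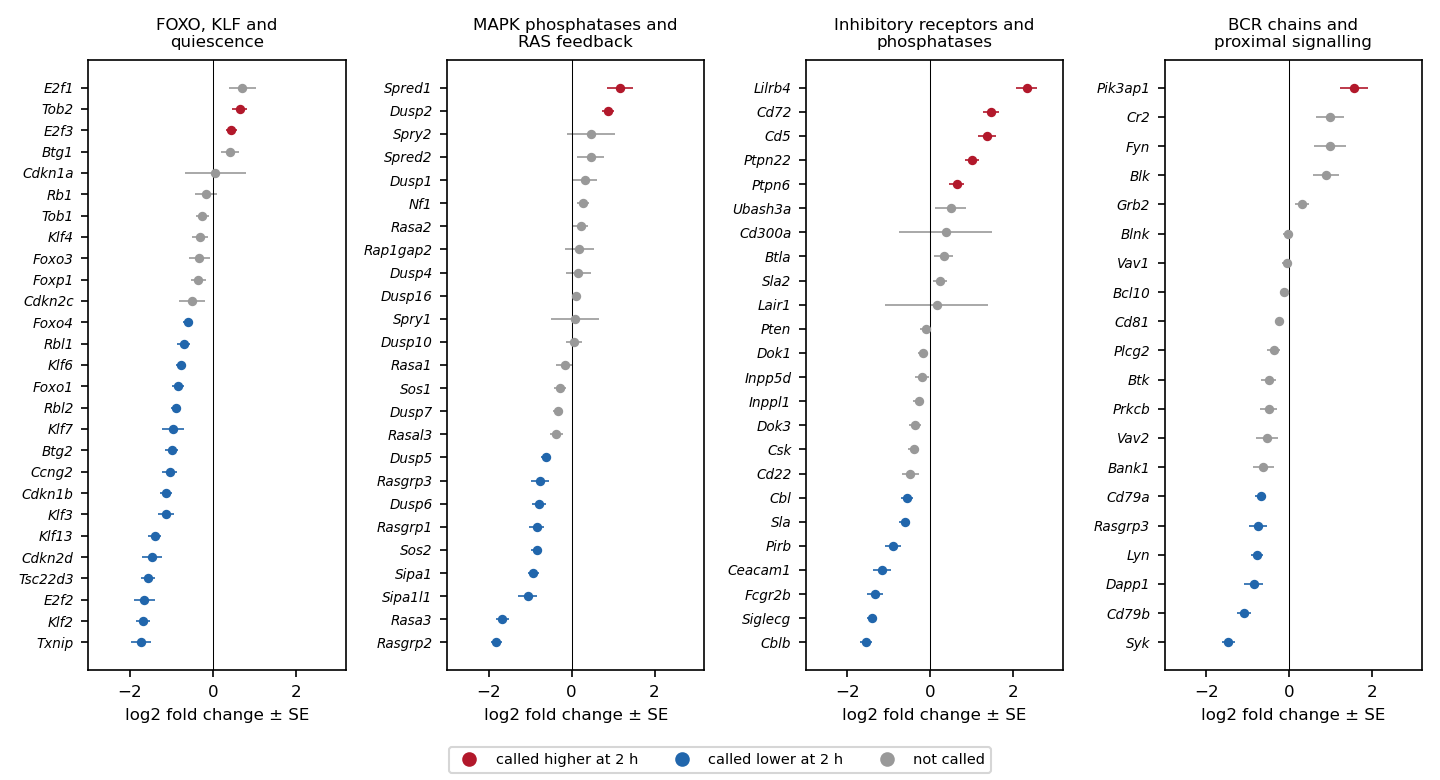
Log2 fold change of WT 2 h over 0 h, with SE as bars, of most members of 4 gene lists, with called genes in red (higher) and blue (lower) and the others in grey. The quiescence panel runs down to -1.72 for Txnip, the RAS panel to -1.82 for Rasgrp2, and the inhibitory panel from 2.32 for Lilrb4 to -1.56 for Cblb.

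Genes of the quiescence list were mostly called lower. Of 27 FOXO, KLF, cell cycle restraint and E2F genes, 16 were called lower and 2 higher. That is 59.3% lower against 9.41% of all genes tested, with a median log2 change of -0.76. The E2F members are E2f1, E2f2 and E2f3, and E2f2, at -1.65, is among the 16 lower calls. Klf2, which keeps B cells quiescent and sets their homing, had 109, 92.7 and 125 CPM at 2 h, against 426, 307 and 321 CPM at 0 h, and Txnip, an inhibitor of glucose uptake driven by FOXO and MondoA, had 173, 132 and 181 CPM at 2 h, against 786, 297 and 629.8 CPM at 0 h. Tsc22d3, which encodes the leucine zipper GILZ, had 102, 82.2 and 107 CPM at 2 h, against 318, 265 and 273 CPM at 0 h, and Klf13 had 112, 137 and 130.3 CPM at 2 h, against 345, 374 and 288 CPM at 0 h. These fell by 1.68, 1.72, 1.56 and 1.40. Cdkn1b, the cyclin-dependent kinase inhibitor p27, had 130.1, 88.7 and 109 CPM at 2 h, against 240.4, 226 and 240.5 CPM at 0 h, and Rbl2, the pocket protein p130, had 84.7, 65.1 and 72.5 CPM at 2 h, against 137, 129 and 143 CPM at 0 h. They fell by 1.12 and 0.89, and Foxo1 itself fell by 0.84. Of the 16 lower calls 14, 7 and 6 were also made without animal 1, 2 and 3. The higher calls were Tob2 at 0.65 and E2f3 at 0.45. Klf2, Txnip, Tsc22d3, Klf13, Cdkn1b and Rbl2 were called in all 3 fits without a WT animal. Tob2 and E2f3 were not called without animal 1 (adjusted p = 0.124 to 0.171) and without the animal block (adjusted p = 0.0832 to 0.108). Foxo1, Tob2 and E2f3 were not called without animal 2 (adjusted p = 0.0924 to 0.241) and without animal 3 (adjusted p = 0.0509 to 0.284).

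Of 15 G1 cyclins and kinases 2 (13.3%) were called higher and 2 (13.3%) lower, close to the 10.2% and 9.41% of all genes tested. Cdk4 had 123, 177 and 176 CPM at 2 h, against 63.8, 73.7 and 65 CPM at 0 h, and rose by 1.22 ± 0.13, and Pcna, the sliding clamp of DNA polymerases, had 138, 152 and 149.7 CPM at 2 h, against 75.3, 83 and 73.1 CPM at 0 h, and rose by 0.93 ± 0.10. The D cyclins that pair with CDK4 diverged: Ccnd2 rose by 0.94 and Ccnd3 fell by 0.82. Of 31 replication and mitosis genes Pcna was the one called in edgeR, while 5 had an unadjusted p under 0.05 and DESeq2 called 2. In animal 1, 30 of the 31 were higher at 2 h with a median of 0.87, against 15 and 16 of 31 in animals 2 and 3 with medians of -0.02 and 0.00182. This moved with the Mki67, Mpo and Rn45s reads of the 2 h library of animal 1 given above, whose part in it was not tested. Cdk4 and Pcna were called in all 3 fits without a WT animal. Ccnd2 was not called without animal 1 (adjusted p = 0.12) and without the animal block (adjusted p = 0.266). Ccnd2 and Ccnd3 were not called without animal 2 (adjusted p = 0.0815 to 0.153) and without animal 3 (adjusted p = 0.0865 to 0.0897).

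Of 19 BCL2 family and death receptor genes 5 were called higher and 1 lower. Bcl2l1, which encodes BCL-XL, had 49.8, 76.1 and 53.5 CPM at 2 h, against 10.4, 13.2 and 11.5 CPM at 0 h, a rise of 2.33 ± 0.25. Bcl2a1b, of the A1 survival proteins, had 105, 121 and 124 CPM at 2 h, against 19.9, 18.7 and 22.3 CPM at 0 h, and rose by 2.52, but its reads may be shared with near-identical copies, so its level is uncertain. Bcl2, the resting survival factor, fell by 0.65. The proapoptotic Bid and Bax rose by 0.94 and 0.63. Of 14 p53 targets 1 (7.14%) was called, against 10.2% higher among all genes tested. It was Aen, a nuclease of apoptosis, at 1.17. Bcl2l1 and Bcl2a1b were called in all 3 fits without a WT animal. Bcl2, Bax and Aen were not called without animal 2 (adjusted p = 0.102 to 0.179). Bcl2, Bid, Bax and Aen were not called without animal 3 (adjusted p = 0.0511 to 0.145).

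Receptors that place B cells in the spleen were called in both directions. Of 30 homing and positioning genes 6 were called higher and 7 lower. Gpr183, the oxysterol receptor that guides activated B cells to the outer follicle, had 336, 427 and 387 CPM at 2 h, against 104, 92.3 and 129 CPM at 0 h, and Cd44, a receptor of hyaluronan, had 87.8, 135 and 99.5 CPM at 2 h, against 48.9, 77.8 and 56.8 CPM at 0 h. They rose by 1.83 ± 0.18 and 0.82 ± 0.10, while Itgb7, an integrin of gut homing, had 44.2, 41.8 and 56.5 CPM at 2 h, against 121, 126 and 158 CPM at 0 h and S1pr4 had 62.1, 45.5 and 61.8 CPM at 2 h, against 143, 169.6 and 162 CPM at 0 h. Itgb7 and S1pr4 fell by 1.51 ± 0.11 and 1.495 ± 0.17. S1pr1, which drives exit from lymphoid tissue, had 389, 258 and 389 CPM at 2 h, against 584, 481 and 534 CPM at 0 h, and was not called (-0.65 ± 0.21, adjusted p = 0.0649), though it was without KO animal 1 (adjusted p = 0.0143). Ccr7 and Cxcr5, the receptors that balance the T cell zone and the follicle, differed by 0.37 ± 0.14 and 0.47 ± 0.23 and were not called. Gpr183, Cd44, Itgb7 and S1pr4 were called in all 3 fits without a WT animal.

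Of 18 cytokines and chemokines 4 (22.2%) were called higher and 2 (11.1%) lower, with a median log2 change of -0.06. Among all genes tested the shares were 10.2% and 9.41%. Vegfa, the vascular growth factor, had 38.9, 63.1 and 45.5 CPM at 2 h, against 6.67, 8.93 and 6.04 CPM at 0 h, and Ccl4, a chemokine that attracts T cells, had 21.3, 44.3 and 26.2 CPM at 2 h, against 2.3, 3.5 and 6.53 CPM at 0 h. They rose by 2.76 ± 0.15 and 2.87 ± 0.40. Ccl3, its neighbour and relative, had 6.39, 10.7 and 8.09 CPM at 2 h, against 1.59, 1.81 and 1.95 CPM at 0 h, and rose by 2.19. Ltb, lymphotoxin beta, which maintains the follicle, was high at rest, with 104, 83 and 109.7 CPM at 2 h, against 299, 273 and 312 CPM at 0 h, and fell by 1.58 ± 0.16. Among 27 cytokine receptors 2 (7.41%) were called higher, Il1r1 and Il2ra, and 5 (18.5%) lower, while 13 had an unadjusted p under 0.05. Il2ra, the high-affinity interleukin 2 receptor chain, had 72.6, 121 and 92.5 CPM at 2 h, against 16.4, 13.2 and 19 CPM at 0 h, and Il10ra, the interleukin 10 receptor, had 83.1, 54.9 and 80.3 CPM at 2 h, against 251, 261 and 241 CPM at 0 h, changes of 2.52 and -1.80. Vegfa, Ccl4, Ltb, Il2ra and Il10ra were called in all 3 fits without a WT animal. Ccl3 was not called without animal 2 (adjusted p = 0.102) and without animal 3 (adjusted p = 0.091).

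Surface activation molecules did not move as one. Cd69, a classic marker of activated lymphocytes, had 119, 136 and 113 CPM at 2 h, against 121, 96.9 and 75.4 CPM at 0 h. Cd86, which costimulates T cells, had 205, 269 and 177 CPM at 2 h, against 172, 207 and 211 CPM at 0 h. Both overlapped between times and were not called (adjusted p = 0.29 and adjusted p = 0.77). Pdcd1lg2 and Cd274, the PD-1 ligands, rose by 1.72 and 1.42, and Tfrc, the transferrin receptor, rose by 1.66 with 264, 459.8 and 433 CPM at 2 h, against 123, 109 and 126 CPM at 0 h. Of 27 such genes 6 (22.2%) were called higher and 5 (18.5%) lower, against 10.2% and 9.41% of all genes tested. Icosl had the largest change among the 27. Cd274 and Tfrc were not called without animal 2 (adjusted p = 0.0915 to 0.0968). Pdcd1lg2, Cd274 and Tfrc were not called without animal 3 (adjusted p = 0.0513 to 0.0949).

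Antigen presentation and interferon genes were called in 1 direction. Of 17 MHC class II presentation genes 0 were called higher and 5 (29.4%) lower, against 10.2% and 9.41% of all genes tested. Ifi30, the thiol reductase that unfolds antigen, had 63.8, 62.3 and 62.7 CPM at 2 h, against 155, 171 and 126 CPM at 0 h, and H2-DMa, a chain of the peptide editor, had 95.8, 88.9 and 115 CPM at 2 h, against 239, 205 and 190.1 CPM at 0 h. They fell by 1.25 and 1.08. The 5 lower calls, with H2-DMb1, H2-DMb2 and H2-Oa at -0.99, -1.07 and -1.105, were of accessory genes of peptide loading. Of 42 interferon-stimulated genes 0 were called higher and 10 (23.8%) lower, with a median of -0.45. Gbp3, a guanylate-binding protein, had 22.5, 18.6 and 25 CPM at 2 h, against 40, 45.2 and 58.6 CPM at 0 h, and Trim25, a ubiquitin ligase of RNA sensing, had 253, 268 and 225 CPM at 2 h, against 509, 589 and 484 CPM at 0 h. They fell by 1.11 and 1.08. The animals differed here, with list medians of -0.37, -0.14 and -0.82 in animals 1, 2 and 3, and 5, 3 and 2 of the 10 lower calls were also made without animal 1, 2 and 3. Ifi30, H2-Oa, Gbp3 and Trim25 were called in all 3 fits without a WT animal. H2-DMa, H2-DMb1 and H2-DMb2 were not called without animal 2 (adjusted p = 0.0538 to 0.0828).

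Factors of B cell fate were called in both directions. Of 26 tested, 5 (19.2%) were called higher and 7 (26.9%) lower, against 10.2% and 9.41% of all genes tested. Bhlhe40, a repressor induced by receptor signals, had 314, 418 and 328 CPM at 2 h, against 63.8, 78.3 and 61.6 CPM at 0 h, and rose by 2.38 ± 0.18. Irf8 and Prdm1, a factor of early B cells and the master regulator of plasma cells, rose by 1.31 and 0.95. Tcf3, the lineage factor E2A, had 145, 138 and 142 CPM at 2 h, against 339, 305 and 309 CPM at 0 h, and fell by 1.16 ± 0.12. Pax5, which maintains B cell identity, had 129, 105 and 139 CPM at 2 h, against 245, 209 and 203 CPM at 0 h, and fell by 0.82. Ets1, which holds back plasma cell differentiation, had 657, 522 and 699 CPM at 2 h, against 1259, 1439.9 and 1413 CPM at 0 h, and fell by 1.14. Of 8 plasma cell markers edgeR called Prdm1 and DESeq2 called 2, and the list summed to between 337 and 435 CPM at 2 h and between 306 and 342 CPM at 0 h. Bhlhe40 and Tcf3 were called in all 3 fits without a WT animal. Prdm1 was not called without animal 1 (adjusted p = 0.0762). Irf8, Prdm1, Pax5 and Ets1 were not called without animal 2 (adjusted p = 0.0833 to 0.13). Irf8, Prdm1 and Ets1 were not called without animal 3 (adjusted p = 0.084 to 0.154).

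**Figure D5:**
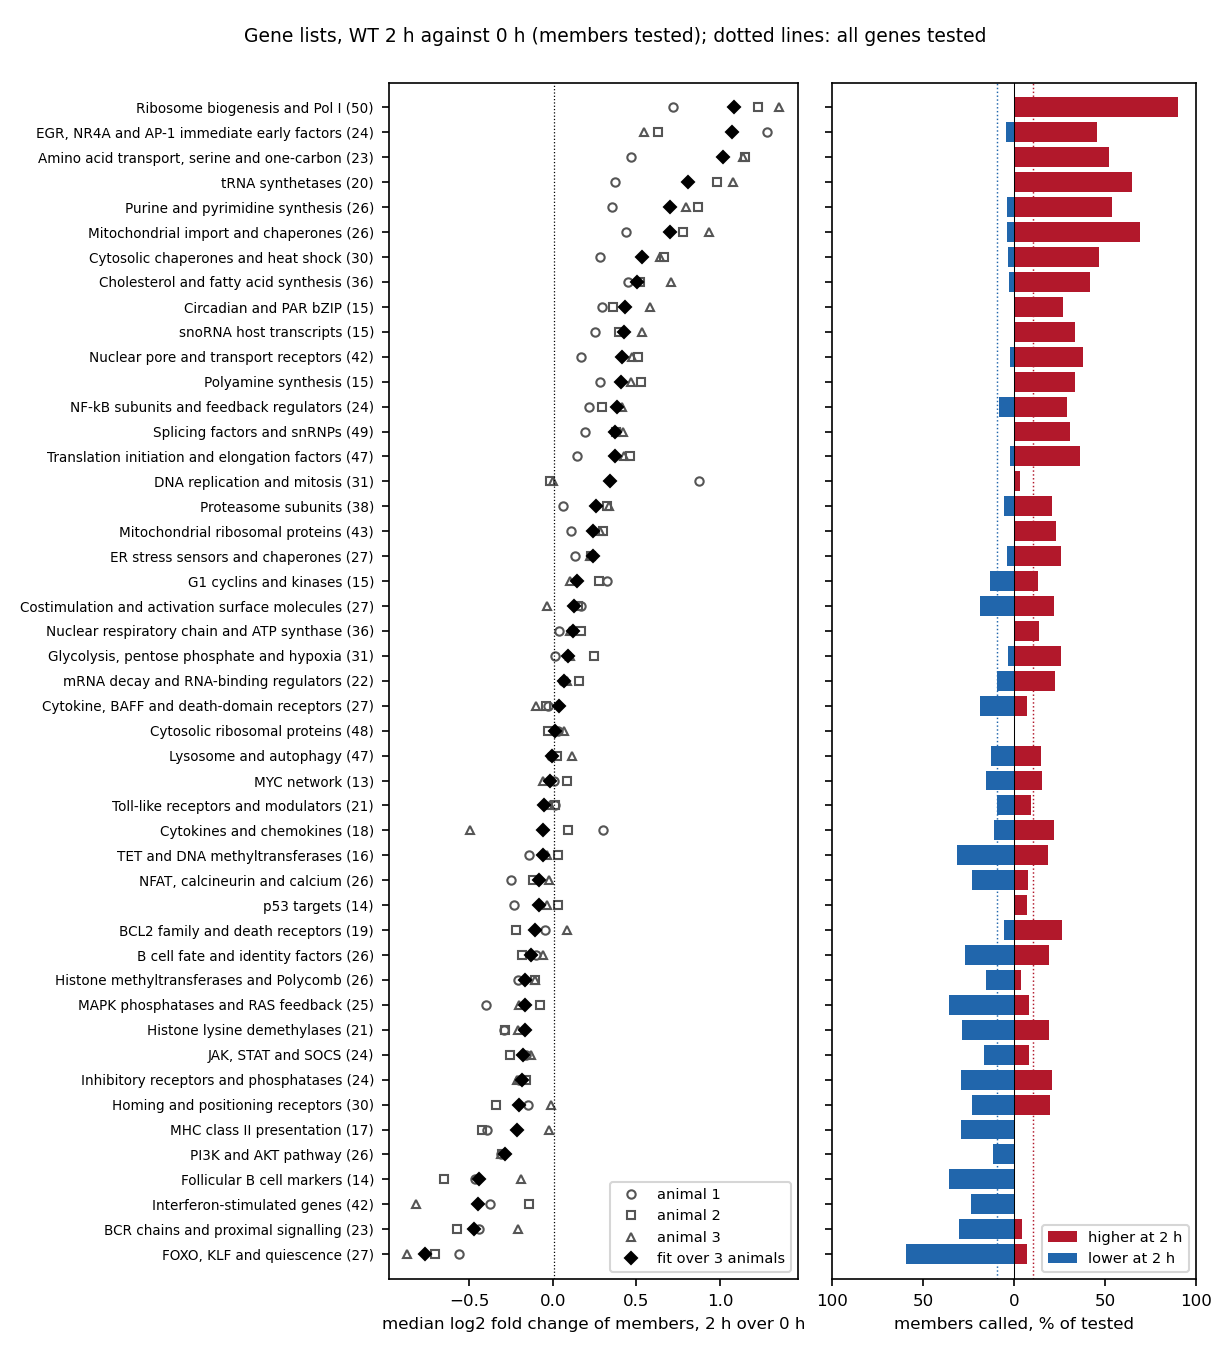
Gene lists with at least 13 tested members, ordered by the median log2 fold change of WT 2 h over 0 h. The left panel shows the median in each animal (open symbols) and in the fit (diamonds), and the right panel the share of members called higher (red) or lower (blue), with dotted lines at the values of all genes tested, 10.2% and 9.41%. Ribosome biogenesis is at the top with 90% higher, and FOXO, KLF and quiescence at the bottom with 59.3% lower.

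Ribosome biogenesis had the largest share of genes called higher among the lists. Of 50 genes of nucleolar assembly and RNA polymerase I tested, 45 were called higher and 0 lower, or 90% against 10.2% of all genes tested. Gnl3, nucleostemin, had 208, 303 and 292 CPM at 2 h, against 80.3, 85.8 and 64.3 CPM at 0 h, Nhp2, of the box H/ACA particles that guide pseudouridylation, had 84.6, 141 and 123 CPM at 2 h, against 34.2, 41.4 and 26.9 CPM at 0 h, and Nolc1, a nucleolar scaffold, had 293, 485 and 395 CPM at 2 h, against 119, 136 and 94.7 CPM at 0 h. Each rose in every animal, by 1.79, 1.76 and 1.73 in the fit. Ncl, nucleolin, the most abundant riser of this group, had 1583, 2351 and 2149 CPM at 2 h, against 741, 835 and 707 CPM at 0 h, and rose by 1.40, and Fbl, the methyltransferase fibrillarin, had 96.6, 144 and 131 CPM at 2 h, against 54.6, 62.7 and 45.9 CPM at 0 h, and rose by 1.18. The rRNA methyltransferase gene Nop2, whose promoter is printed above, had 133, 220.1 and 179.6 CPM at 2 h, against 67.9, 83.5 and 56.9 CPM at 0 h, and rose by 1.34. Polr1b, a subunit of RNA polymerase I, rose by 1.70. Of the 45 calls 44, 15 and 15 were also made without animal 1, 2 and 3. Gnl3, Nhp2, Nolc1, Ncl, Fbl and Nop2 were called in all 3 fits without a WT animal. Polr1b was not called without animal 2 (adjusted p = 0.0927) and without animal 3 (adjusted p = 0.0999).

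Genes of the ribosomal proteins themselves were not called. Of 48 cytosolic ribosomal protein genes 0 were called in edgeR, 1 had an unadjusted p under 0.05 and 0 were called in DESeq2, with a median log2 change of 0.01 and a range from -0.15 to 0.29. Mitochondrial ribosomal proteins lay between, with 10 of 43 called higher, led by Mrpl12 at 1.20. Of 47 translation factors 17 were called higher and 1 lower. Eif4e, the cap-binding protein, and Eif4a1, the helicase of the same complex, rose by 1.08 and 1.11, and Pdcd4, an inhibitor of that helicase, was the gene called lower, with a fall of 0.57. Of the 17 higher calls 14, 5 and 5 were also made without animal 1, 2 and 3. Mrpl12 and Eif4e were called in all 3 fits without a WT animal. Pdcd4 was not called without animal 1 (adjusted p = 0.0817). Eif4a1 and Pdcd4 were not called without animal 2 (adjusted p = 0.0615 to 0.161) and without animal 3 (adjusted p = 0.0622 to 0.0951).

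Genes of amino acid supply and tRNA charging were called in 1 direction. Among 20 aminoacyl-tRNA synthetases 13 were called higher and 0 lower, with a median log2 change of 0.81, and 11, 2 and 2 of these calls were also made without animal 1, 2 and 3. Tars, the threonyl enzyme, rose by 1.32, and Iars, the isoleucyl enzyme whose promoter is printed above, had 198, 314 and 298 CPM at 2 h, against 118, 121 and 97.7 CPM at 0 h, and rose by 1.25. Of 23 genes of amino acid transport, serine and one-carbon metabolism 12 were called higher and 0 lower, and 9, 5 and 5 of these calls were also made without animal 1, 2 and 3. Slc7a5, the transporter of large neutral amino acids, had 148, 395 and 296 CPM at 2 h, against 50.2, 74.4 and 42.7 CPM at 0 h, and Slc1a4, which carries serine and alanine, had 5.86, 18 and 18.7 CPM at 2 h, against 1.35, 1.93 and 2.38 CPM at 0 h. Shmt1, of the folate cycle in the cytosol, had 49.4, 85.5 and 74.7 CPM at 2 h, against 11.7, 14 and 11.2 CPM at 0 h. Mthfd2, of the folate cycle in the mitochondrion, had 40, 91.1 and 71.8 CPM at 2 h, against 14.1, 18.9 and 14.9 CPM at 0 h. The rises of these 4, 2.26, 2.78, 2.48 and 2.02 on the log2 scale, were all of over 2-fold. The 2 h library of animal 1 was the lowest of the 2 h libraries in each of the 4. Tars, Slc7a5, Slc1a4, Shmt1 and Mthfd2 were called in all 3 fits without a WT animal. Iars was not called without animal 1 (adjusted p = 0.0549), without animal 2 (adjusted p = 0.181) and without animal 3 (adjusted p = 0.209).

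Nucleotide and polyamine synthesis genes were mostly called higher where they were called. Of 26 purine and pyrimidine genes 14 were called higher and 1 lower, and 14, 5 and 5 of the higher calls were also made without animal 1, 2 and 3. Ctps, CTP synthase, had 71.9, 139 and 116 CPM at 2 h, against 34.5, 36.7 and 23.6 CPM at 0 h, and Umps, which makes UMP, had 51.1, 81.6 and 57.4 CPM at 2 h, against 22.4, 34.5 and 24.2 CPM at 0 h. They rose by 1.76 ± 0.24 and 1.23 ± 0.11, while the isoenzyme gene Ctps2 fell by 0.79. Of 15 polyamine genes 5 were called higher. Srm, spermidine synthase, had 78.3, 174 and 133 CPM at 2 h, against 25.5, 34.1 and 17.9 CPM at 0 h, and rose by 2.29 ± 0.24, whereas Odc1, the entry enzyme of the pathway, had 164, 338 and 262 CPM at 2 h, against 147, 207 and 139 CPM at 0 h, and was not called (adjusted p = 0.0675). The Amd1 and Amd2 rows, whose counts differed by at most 1 in any library, share reads and are uncertain. Ctps, Umps and Srm were called in all 3 fits without a WT animal. Ctps2 was not called without animal 2 (adjusted p = 0.0567) and without animal 3 (adjusted p = 0.066).

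Genes of protein import, folding and nuclear transport were mostly higher where called. Of 26 genes of mitochondrial import and chaperones 18 were called higher and 1 lower, and 16, 5 and 6 of the higher calls were also made without animal 1, 2 and 3. Timm9, a chaperone of the intermembrane space, had 34.5, 41.3 and 44.9 CPM at 2 h, against 12.9, 12.7 and 12.4 CPM at 0 h, and rose by 1.66 ± 0.15, and Hspd1, the matrix chaperonin, had 182, 281 and 242 CPM at 2 h, against 95.4, 96.4 and 89.2 CPM at 0 h, and rose by 1.31 ± 0.17. Tfam, the packaging factor of mitochondrial DNA, was the gene called lower, with a fall of 0.55. Of 30 cytosolic chaperones 14 were called higher and 1 lower, and Hsp90ab1, with 1710.3, 2418 and 2038 CPM at 2 h, against 1021, 1112 and 871 CPM at 0 h, rose by 1.03. Of the higher chaperone calls 12, 0 and 0 were also made without animal 1, 2 and 3. Of 42 nuclear pore and transport genes 16 were called higher and 1 lower, and 11, 5 and 4 of the higher calls were also made without animal 1, 2 and 3. Rcc1, which loads RAN with GTP, rose by 1.24 and Nup62, of the central channel, by 1.09. Xpo1, the main exporter of proteins, was the one called lower, with a fall of 0.64. Timm9, Hspd1, Rcc1 and Nup62 were called in all 3 fits without a WT animal. Tfam and Xpo1 were not called without animal 1 (adjusted p = 0.0678 to 0.115). Tfam, Hsp90ab1 and Xpo1 were not called without animal 2 (adjusted p = 0.0641 to 0.192) and without animal 3 (adjusted p = 0.0636 to 0.202). Xpo1 was not called without the animal block (adjusted p = 0.0606).

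Of 38 proteasome genes 8 were called higher and 2 lower, and 0 of these calls were made without animal 2 or without animal 3. Psmb5, the standard chymotrypsin-like subunit, rose by 0.49, and the immunoproteasome subunits Psmb8 and Psmb9 fell by 0.70 and 0.82. Psme3, the nuclear activator PA28-gamma, rose by 1.16. Of 49 splicing factors 15 were called higher and 0 lower, with a median log2 change of 0.37, and 8, 1 and 1 of these calls were also made without animal 1, 2 and 3. Psmb8 and Psmb9 were not called without animal 1 (adjusted p = 0.0584 to 0.112) and without the animal block (adjusted p = 0.0627 to 0.093). Psmb5, Psmb8, Psmb9 and Psme3 were not called without animal 2 (adjusted p = 0.118 to 0.197) and without animal 3 (adjusted p = 0.117 to 0.202).

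Of 36 genes of cholesterol and fatty acid synthesis 15 were called higher and 1 lower, or 41.7% higher against 10.2% of all genes tested. Of the higher calls 15, 9 and 6 were also made without animal 1, 2 and 3. Sqle, squalene epoxidase, had 59.5, 97.3 and 120.1 CPM at 2 h, against 13.6, 17 and 20 CPM at 0 h, and Insig1, which retains the sterol sensor in the ER, had 109, 184 and 229 CPM at 2 h, against 42, 39.5 and 39.5 CPM at 0 h. They rose by 2.41 ± 0.16 and 2.05 ± 0.29. Of 9 genes of cholesterol efflux and of LXR targets 0 were called higher and 2 lower. Mylip, a ubiquitin ligase and a target gene of the sterol-activated receptor LXR, had 115, 80.3 and 98.8 CPM at 2 h, against 339, 329.9 and 308 CPM at 0 h, and fell by 1.75 ± 0.18. Abcg1, a sterol exporter, fell by 1.02, and its relative Abca1 had 663, 486 and 451 CPM at 2 h, against 708, 805 and 819 CPM at 0 h, and was not called (adjusted p = 0.126). Sqle, Insig1 and Mylip were called in all 3 fits without a WT animal. Abcg1 was not called without animal 2 (adjusted p = 0.148), without animal 3 (adjusted p = 0.133) and without the animal block (adjusted p = 0.0516).

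Of 31 glycolysis, pentose phosphate and hypoxia genes 8 (25.8%) were called higher and 1 (3.23%) lower. Hk2, an inducible hexokinase, had 38, 89 and 56.4 CPM at 2 h, against 11, 22.2 and 7.93 CPM at 0 h, Ldha, lactate dehydrogenase, had 314, 534 and 430.3 CPM at 2 h, against 166, 186 and 139 CPM at 0 h, and Slc16a1, a lactate transporter, had 63.8, 122 and 91.9 CPM at 2 h, against 21.8, 26.4 and 19.3 CPM at 0 h. They rose by 2.21 ± 0.22, 1.36 ± 0.18 and 2.01 ± 0.18. Slc2a1, the glucose transporter GLUT1, had 46.5, 51 and 43.4 CPM at 2 h, against 60.5, 64.7 and 54.4 CPM at 0 h, and was not called (-0.35 ± 0.13, adjusted p = 0.0945). Of 36 nuclear genes of the respiratory chain 5 (13.9%) were called higher, near the 10.2% of all genes tested, with Cycs, cytochrome c, at 0.78. Of 47 lysosome and autophagy genes 7 (14.9%) were called higher and 6 (12.8%) lower, against 10.2% and 9.41% of all genes tested. Optn, a receptor of selective autophagy, had 33.2, 38.2 and 35 CPM at 2 h, against 12.4, 11.1 and 10.6 CPM at 0 h, and rose by 1.64. Hk2, Ldha, Slc16a1 and Optn were called in all 3 fits without a WT animal. Cycs was not called without animal 2 (adjusted p = 0.054) and without animal 3 (adjusted p = 0.103).

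Chromatin genes were called in both directions. Of 21 histone lysine demethylases 4 (19.0%) were called higher and 6 (28.6%) lower, against 10.2% and 9.41% of all genes tested. Kdm2b, of a Polycomb complex that binds CpG islands, had 276, 443 and 338 CPM at 2 h, against 87.5, 100.3 and 79.2 CPM at 0 h, and Kdm6b, which removes H3K27 methylation, had 669, 1077 and 694 CPM at 2 h, against 275, 314 and 166 CPM at 0 h. They rose by 1.97 ± 0.28 and 1.71 ± 0.35. Suv39h2, an H3K9 methyltransferase, had 27.4, 39.7 and 37.4 CPM at 2 h, against 8.81, 13.4 and 12.1 CPM at 0 h, and rose by 1.61 ± 0.15, the 1 gene called higher by edgeR among 26 methyltransferase and Polycomb genes, of which 4 were called lower. DESeq2 called 10 of the 26 in either direction. The GADD45 genes, linked to DNA demethylation and stress signalling, diverged: Gadd45b had 151, 173 and 124 CPM at 2 h, against 75.3, 71.5 and 63.4 CPM at 0 h, and rose by 1.08, while Gadd45a and Gadd45g fell by 0.77 and 1.09. Kdm2b, Suv39h2, Gadd45b, Gadd45a and Gadd45g were called in all 3 fits without a WT animal. Kdm6b was not called without animal 2 (adjusted p = 0.113) and without animal 3 (adjusted p = 0.131).

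Clock genes and mRNA decay factors were called as well. Of 15 circadian genes 4 were called higher and 0 lower. Ciart, a repressor of the clock, had 29, 38 and 39.8 CPM at 2 h, against 10.1, 9.65 and 7.45 CPM at 0 h. Per1, a period gene that answers to many stimuli, had 233, 307 and 268 CPM at 2 h, against 150.4, 157 and 94.5 CPM at 0 h, and Per2 had 24, 43.5 and 36.4 CPM at 2 h, against 13.9, 19.4 and 8.54 CPM at 0 h. They rose by 1.98, 1.03 and 1.35. Zc3h12c, a relative of the RNase Regnase-1, had 26.5, 72.2 and 62.9 CPM at 2 h, against 5.08, 10.6 and 9.64 CPM at 0 h, and rose by 2.63 ± 0.20. Among 22 decay and RNA-binding regulators 5 were called higher and 2 lower. Of 437 lncRNA rows 44 (10.1%) were called higher and 29 (6.64%) lower, and of 65 snoRNA rows 6 (9.23%) were called higher and 0 lower, shares of higher calls close to the 10.2% of all genes tested. Reads of a snoRNA and its host transcript cannot be told apart. Zc3h12c was called in all 3 fits without a WT animal. Ciart, Per1 and Per2 were not called without animal 2 (adjusted p = 0.0645 to 0.0985) and without animal 3 (adjusted p = 0.0812 to 0.119).

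Genes called lower were longer in the genome than genes called higher. The median span from start to end in RefSeq was 17.3 kb for genes called higher and 26.96 kb for genes called lower, against 21.3 kb for all genes tested. Genes of over 100 kb made up 4.49% of the higher genes and 14.6% of the lower genes, against 10.9% of all. Hivep3 and Ahr, among the leading risers, go against this order in part, with spans of 404 and 37 kb.

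The called genes moved the same way in 3 of 3 animals, which a test paired by animal favours, but not by the same amount. Over the genes called higher the median log2 ratio was 0.65, 0.97 and 1.03 in animals 1, 2 and 3, and over those called lower it was -0.70, -0.82 and -0.78. The increase was thus smallest in animal 1, whose 2 h library held 24.8% Rn45s, and the ribosome biogenesis list showed the same with medians of 0.72, 1.22 and 1.35. Other lists went the other way, since the medians of the immediate early and of the replication and mitosis genes given above were largest in animal 1. For the decreases the FOXO and KLF list had -0.56, -0.70 and -0.87. The part of the additional reads in that library in these sizes was not tested. Of the called genes 97 differed by over 1 on the log2 scale between the animals with the largest and the smallest ratio. Zbtb46, a dendritic cell factor, was one of them, with 11.5, 26.5 and 10.3 CPM at 2 h, against 3.81, 3.14 and 5.25 CPM at 0 h, and a change of 1.84. Another was Tlr7, the sensor of single-stranded RNA, with 32.8, 48.9 and 72.2 CPM at 2 h, against 15, 10.3 and 42.6 CPM at 0 h, and log2 ratios of 1.101, 2.20 and 0.75 in animals 1, 2 and 3. Leaving out WT animal 1 and KO animal 1 together, an alternative added after the data were seen, 4488 genes were called, of which 2386 were among the 2406. Zbtb46 was not called without animal 1 (adjusted p = 0.133), without animal 2 (adjusted p = 0.267) and without animal 3 (adjusted p = 0.109). The call of Tlr7 was likewise lost without animal 1, without animal 2 and without animal 3.

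The response in KO cells came from other animals and shares no library with that in WT cells. In KO 3260 of 12242 genes were called (26.6%). The test of WT response minus KO response called 0 genes in edgeR (0% of those tested, smallest adjusted p = 0.999), with 87 genes (0.711%) at an unadjusted p under 0.05, and 0 genes in DESeq2. Leading genes had log2 changes side by side as follows, with S1pr3 at 4.02 ± 0.20 in WT and 3.72 ± 0.20 in KO, Myc at 3.23 ± 0.20 in WT and 3.04 ± 0.20 in KO, Cacna1i at -2.53 ± 0.20 in WT and -2.85 ± 0.20 in KO, and Icosl at -2.24 ± 0.22 in WT and -2.59 ± 0.23 in KO. Of the genes called in WT, 1100 of the 1254 higher and 1050 of the 1152 lower ones were also called in KO. Of all genes tested 26.6% were called in KO. Both sets of calls come from 1 fit with shared filter, scaling and estimate of spread. The smallest unadjusted p values of the difference belonged to Tbx6, a T-box factor (-0.89 ± 0.25 in WT and -2.02 ± 0.27 in KO), Rbl2 (-0.89 ± 0.11 and -1.40 ± 0.12), Mrps14, of the mitochondrial ribosome (0.31 ± 0.11 and 0.81 ± 0.11), Cd44 (0.82 ± 0.10 and 0.36 ± 0.10) and Wdr96 (0.97 ± 0.46 and -1.17 ± 0.51), each with an adjusted p = 0.999 for the difference. The 0.711% of genes at an unadjusted p under 0.05 is far under the share that this threshold gives with no difference, so the test was conservative. A p that misses the threshold does not show that the responses are alike.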

How the data were processed

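Poly(A) RNA of sorted splenic follicular B cells was sequenced in 12 libraries. The deposited values are whole-number counts per gene and library, made by the authors with STAR on mm10, per the submitters' processing notes; the sources used here name no counting tool, annotation or strand setting. Totals lay between 5666013 and 14153396 counts a library, and this depth limits precision for genes of few counts. The 24046 rows include 27 symbols turned into dates, which were left as they stand.

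Groups came from the labels, and libraries were paired by the animal number in the column names. Within WT, deviations from the group means of the 2 h and 0 h libraries of the same animal correlated across genes with r = -0.16, 0.52 and 0.57 in animals 1, 2 and 3, and those of different animals with r from -0.72 to 0.46. Nothing in the labels says whether animals of the same replicate number shared a cage or day.

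Counts were tested with edgeR 4.0.16 (quasi-likelihood, R 4.3.3, limma 3.58.1) on all 12 libraries, with the animal as block and a 2 h term for each genotype, filterByExpr, TMM scaling and Benjamini-Hochberg adjustment over 12242 genes, at a threshold of 0.05. The fit left 4 residual degrees of freedom. Standard errors were derived from the log2 change and F. CPM used TMM-scaled library sizes, and log2 ratios per animal added 0.5 CPM. The procedure was tested on simulated counts with 200 changed genes. Alternatives were no block, a block by the replicate number of the sample titles, WT libraries only, and leaving out libraries or animals. Others were RLE factors, Rn45s left out, other filters, robust fitting and DESeq2 1.42.0.

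Genes named are Jmjd1c, the 10 called genes with the largest fold in each direction at a mean of at least 10 CPM without overlap, the 8 with the largest difference in CPM, the 5 called genes whose animals differ the most, the 5 with the smallest p for WT against KO response, in each list the 4 with the smallest p, and other list members by role. Some of these genes are not reported here. The members and gene lists were chosen with earlier results of these data known. RefSeq tables (GRCm38.p6) gave positions, promoters and miRNA sequences, and 12165 of the genes tested (99.4%) matched by symbol.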

Additional observations from a re-analysis of the deposited data

How the results depend on the processing

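The count of 2406 called genes, 1254 higher and 1152 lower, came to between 1977 and 2592 called with RLE factors, with Rn45s left out, under both other filters, with robust fitting and with DESeq2. Without the animal block 2419 genes were called, of which 2124 were among the 2406. With the replicate number of the sample titles as block 3048 were called. With the WT libraries only, 3772 genes were called, 1897 higher and 1875 lower. Without KO replicate 1 the counts were 4215, 2138 and 2077, and without WT and KO replicate 1, added after the data were seen, 4488, 2374 and 2114; the cause was not tested. Leaving out 1 WT animal gave 490 to 1408 called genes, 240 to 856 higher and 234 to 552 lower, in fits on 2 WT animals. Leaving out 1 WT library without the block, and assuming that groups of 2 vary like the others, gave 1278 to 2216 called, 728 to 1367 higher and 550 to 902 lower. Within these ranges the called, higher and lower counts were 1540, 824 and 716 without the 2 h library of animal 3, 1499, 845 and 654 without the 0 h library of animal 1, and 1476, 796 and 680 without the 0 h library of animal 3. Every gene called in both a given alternative and the original fit had the same direction. The WT against KO response stayed at 0 called genes in each alternative that could test it, with 24 to 119 genes at an unadjusted p under 0.05. Of 250 named genes, 212 of them called, none changed sign with a call. Without WT replicate 1, 2 or 3 the calls of 26, 91 and 85 were lost, without the block 13, with DESeq2 1, and 11 were gained without KO replicate 1. No scaling moved the median log2 change of all genes by more than 0.03. With 3 animals and 4 residual degrees of freedom, the fit has limited power for small changes and for genes of few counts.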
